A study of Mus musculus with 17 samples.

Results

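The transcripts described here encode 10 ubiquitin ligases that have been linked to muscle wasting, Fbxo32, Trim63, Fbxo30, Fbxo21, Fbxo31, Trim32, Traf6, Mul1, Nedd4 and Stub1. They were taken by symbol from an RNA-seq table of 47643 gene symbols. No measured value entered that rule, but the ligases were chosen with earlier results of these data known. All 10 were listed, and all 10 passed the filter for low values (at least 1 TPM in at least 3 mice) that 13305 genes passed. TPM (transcripts per 1000000) corrects read numbers for transcript length, and each library sums to 1000000, so levels of different genes can be set side by side. RNA came from the skeletal muscle portion of the diaphragm of 17 male C57BL/6J mice aged 4 months. Lewis lung carcinoma (LLC) cells, a mouse lung tumor line, were injected under the skin of 7 of the mice, and the other 10 stayed tumor-free. During the last week, mice of both kinds received 3 intraperitoneal injections of recombinant Fibcd1 (rFibcd1), a fragment of a secreted fibrinogen-like protein, or mock injections of saline with albumin. The groups were 5 mock-injected tumor-free mice (Control), 5 tumor-free mice given the protein (Control + rFibcd1), 3 mock-injected tumor-bearing mice (LLC) and 4 tumor-bearing mice given it (LLC + rFibcd1). All tumors came from 1 transplanted cell line.

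Ubiquitin ligases pick the proteins to which a chain of ubiquitin is attached, and most such chains send their carriers to the proteasome for breakdown. In fasting, disuse, denervation and cancer cachexia, muscle fibers raise the transcripts of a small set of these ligases, and Fbxo32 (atrogin-1) and Trim63 (MuRF1) are the most widely used markers of that state. FoxO transcription factors and the glucocorticoid receptor are known to drive both genes, whereas insulin and IGF signaling through Akt holds FoxO out of the nucleus. The diaphragm works without rest, and its loss of mass in cachexia weakens breathing.

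Libraries held an estimated 50.8 to 54.6 × 1000000 reads, read from the size of the smallest steps in the TPM values, of which 81.0 to 83.5% lay within 0.02 of a whole read. The member with the fewest reads was Trim32, with 396 to 572 per mouse, and Fbxo32 had 10609 to 31004. Mitochondrially encoded transcripts took 41.3 to 44.3% of the TPM in LLC, 43.7 to 46.5% in LLC + rFibcd1, 45.9 to 48.4% in Control and 45.4 to 50.4% in Control + rFibcd1 mice, and a lower share leaves more of the fixed TPM sum to the remaining genes. The 12 myofiber markers summed to 51161 to 54558 TPM in LLC, 53232 to 61794 in LLC + rFibcd1 and 59651 to 64584 in Control mice, with Acta1, skeletal actin, as the most abundant, and none was at 0. The 10 B cell markers summed to 271 to 349 TPM in LLC mice, 21.1 to 338 in LLC + rFibcd1, 2.80 to 118 in Control and 4.05 to 166 in Control + rFibcd1 mice, led by Cd79a. In the same order, the T cell sums were 42.1 to 69.4, 4.68 to 66.8, 3.33 to 24.7 and 2.34 to 23.5 TPM, led by Cd2. Macrophage sums were 1048 to 1199, 476 to 1163, 332 to 688 and 258 to 1895 TPM, led by Lyz2, and Control + rFibcd1 replicate 1, at 1895, lay above every LLC mouse. Neutrophil sums were 52.6 to 116, 59.7 to 219, 5.26 to 17.8 and 5.33 to 81.0 TPM, led by S100a9. Endothelial sums were 299 to 343, 359 to 401, 270 to 301 and 265 to 307 TPM, led by Eng, so LLC + rFibcd1 mice lay above all others. Adipocyte sums were 2085 to 8338, 1225 to 4349, 1038 to 3313 and 1086 to 4065 TPM, led by Cfd. The part of these cell types in the results below was not tested. In a bulk sample, fewer cells of a type and less RNA per cell cannot be told apart.

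RefSeq promoter entries (build GRCm38.p6) matched 9 of the 10 genes, all but Fbxo32, which was therefore not searched, and Nedd4 has entries for a pair of start sites. The 250 bases before the start of Trim63, the most abundant of the ligases and the one whose entry held the most motif matches, are shown on the plus strand with those matches in capitals.
Trim63, chr4:134314870-134315119: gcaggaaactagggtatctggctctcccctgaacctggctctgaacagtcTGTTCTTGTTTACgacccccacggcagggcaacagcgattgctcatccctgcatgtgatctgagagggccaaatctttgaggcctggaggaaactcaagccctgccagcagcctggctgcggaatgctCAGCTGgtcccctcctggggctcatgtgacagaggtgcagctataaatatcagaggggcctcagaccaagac
Each entry, of 300 bases (250 before and 50 after the start), was searched on both strands for GTAAACA (FoxO), TGTTCT (a glucocorticoid receptor half-site), CAGCTG (an E box of the kind that MyoD family factors bind) and TTGCGCAA (C/EBP). In Trim63 the reverse complement of the FoxO motif, TGTTTAC, lay at positions -194 to -188, directly after TGTTCT at -200 to -195, and CAGCTG lay at -72 to -67. Of 32851 promoter entries of this length, 3.65% held the FoxO motif, 19.0% the half-site, 16.3% CAGCTG and 0.183% the C/EBP motif. The FoxO motif and the half-site lay within 10 bases of each other in 0.192% of entries. Among the other members with an entry, Trim32 held CAGCTG, and 1 of the Nedd4 entries held TGTTCT and CAGCTG. These are matches of letters only, no binding was measured, and no link between them and the transcript levels was tested.

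The 10 ligases fell into 3 bands of abundance. Trim63, Fbxo32, Stub1, Nedd4 and Fbxo31 averaged 108, 90.4, 78.0, 73.3 and 68.5 TPM over the 17 mice, above 91.9% or more of the genes tested. Mul1, at 22.1 TPM, lay between, and Fbxo21, Fbxo30, Trim32 and Traf6 averaged 8.55, 6.70, 5.93 and 4.58 TPM, with Traf6 above 35.3% of genes. In Control mice the order was Trim63, Fbxo32, Stub1, Fbxo31, Nedd4, Mul1, Fbxo21, Fbxo30, Trim32 and Traf6. The ranges of neighbors in this order overlapped except between Nedd4 and Mul1, between Mul1 and Fbxo21, and between Trim32 and Traf6. Trim63 led in all 4 groups. In LLC + rFibcd1 mice Fbxo32 no longer overlapped with Stub1, the next gene below it, and in LLC mice Stub1 no longer overlapped with Fbxo31. Spread between mice differed by gene, with a coefficient of variation in Control mice of 18.2% for Trim63 and 12.7% for Fbxo32 against 2.82% for Stub1 and 4.11% for Trim32.

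**Figure D1:**
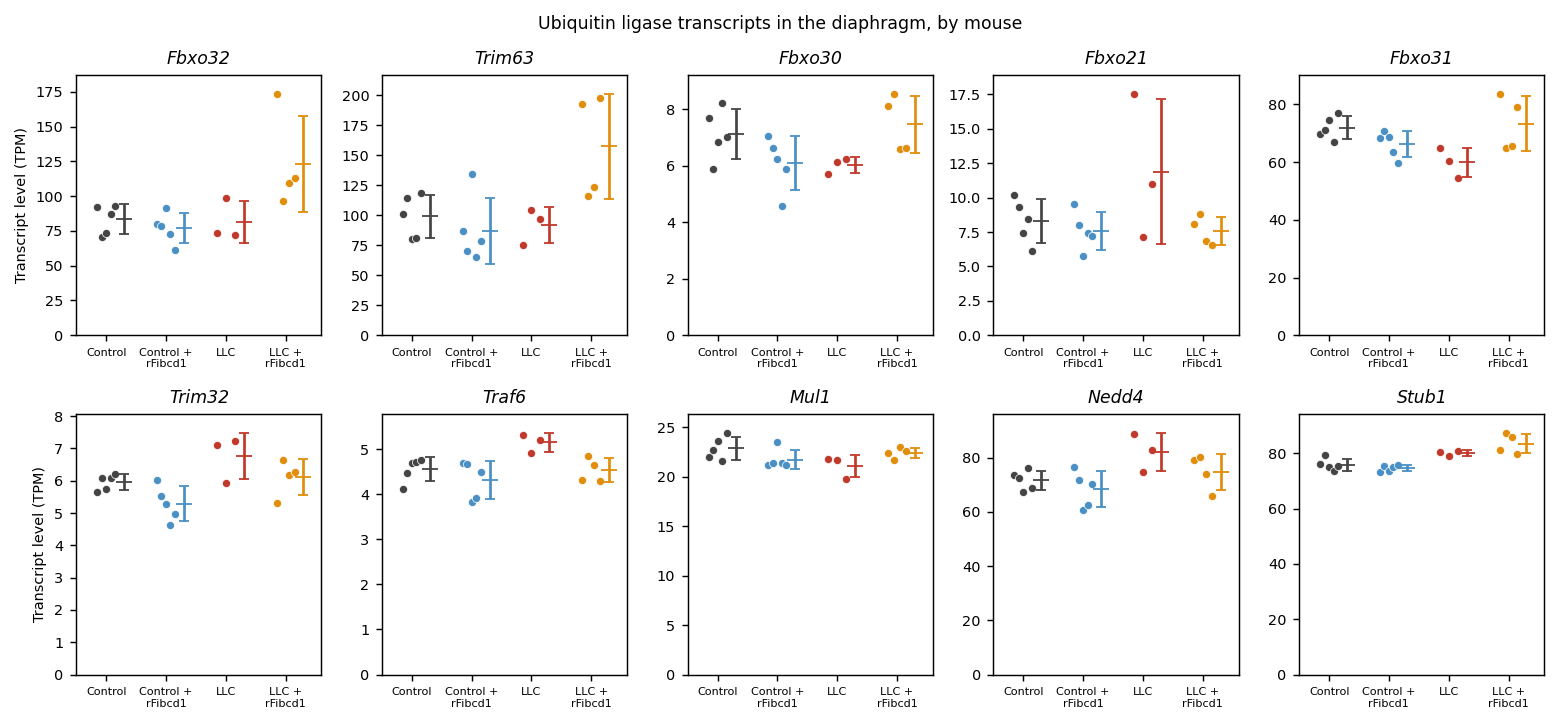
Transcript level (TPM, y axes from 0) of each ligase, with 1 point per mouse in each of the 4 groups (5 Control, 5 Control + rFibcd1, 3 LLC, 4 LLC + rFibcd1), and bars showing mean and SD. Trim63 and Fbxo32 are highest in LLC + rFibcd1 mice (157.6 ± 43.6 and 123.1 ± 34.4 TPM, SD, n = 4), and Fbxo31 is lowest in LLC mice (59.9 ± 5.11 TPM, SD, n = 3).

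The first question was whether the ligases rise in the diaphragm of tumor-bearing mice. In LLC against Control mice, 1 of 10 ligases passed limma's test at an adjusted p under 0.05 (Benjamini-Hochberg over all genes), beside 35.8% of the 13305 genes, and that gene, Fbxo31, was lower. At an unadjusted p under 0.05, 5 of 10 passed (3 higher, 2 lower), beside 48.3% of all genes. Log2 differences are on the log2(TPM + 1) scale throughout, which understates changes of low genes. The median log2 difference was 0.017 over the 10 ligases and 0.16 over all genes. The groups did not overlap for 2 ligases, Traf6 (higher in LLC) and Fbxo31 (lower), beside 40.2% of all genes. Without LLC replicate 3, only 24 genes of all tested were called in this comparison (4759 with it), and Fbxo31 was not among them (adjusted p = 0.163).

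In LLC + rFibcd1 against Control + rFibcd1 mice, where both groups had received the protein, 3 of 10 ligases rose (Fbxo32, Trim63 and Stub1), beside 8.06% of all genes. At an unadjusted p under 0.05, 5 of 10 passed, all higher, beside 28.5% of all genes. Fbxo32 and Stub1 did not overlap between these groups, beside 8.91% of all genes. The median difference was 0.15 over the ligases and 0.11 over all genes. Of the endothelial markers 7 of 10 also rose in this comparison, as did 6 of 7 neutrophil markers, and their part in the ligase results was not tested. Against Control mice, 1 ligase rose in LLC + rFibcd1 mice (Stub1), beside 3.08% of all genes. At an unadjusted p under 0.05, 3 passed in that comparison (Fbxo32, Trim63 and Stub1), beside 19.9%, and Fbxo32 and Stub1 did not overlap, beside 8.88%. When all 7 tumor-bearing mice were set against all 10 tumor-free mice, 5 ligases were called higher and none lower, beside 44.8% of all genes, and the same number passed unadjusted, beside 53.5%. The median difference was 0.14 over the ligases and 0.13 over all genes, so 3 of the 5, Trim32, Nedd4 and Stub1, differed from the median gene by only 0.027, 0.018 and -0.0078. Under each of the 3 other scalings of the libraries (median-ratio, without mitochondrially encoded genes, quantile normalization) none of these 5 was called and Mul1 was called lower, and the 3 calls with rFibcd1 in both groups were lost as well.

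The other question was whether rFibcd1 alters the ligases. In LLC + rFibcd1 against LLC mice, limma called 0 of 10 ligases, beside 0.113% of all genes. Dunn's test called 0 of all 13305 genes there, so its 0 among the ligases says nothing about them. At an unadjusted p under 0.05, 5 passed (Fbxo32, Trim63 and Fbxo31 higher, Fbxo21 and Traf6 lower), beside 22.7% of all genes. Trim63, Fbxo30 and Fbxo31 were higher without overlap and Traf6 lower without overlap, beside 14.6% of all genes. The median difference was 0.073 over the ligases and -0.11 over all genes. In tumor-free mice, Control + rFibcd1 against Control, limma called 0 of 10 ligases, beside 0% of all genes, and Dunn's test also called none of the genes tested. Trim32 alone passed unadjusted, beside 4.39%, and no ligase was free of overlap, beside 0.812%. The interaction, which asks whether the rFibcd1 difference was itself different in tumor-bearing mice, was called by limma for 0 of 10 ligases, beside 0% of all genes. At an unadjusted p under 0.05, 5 ligases passed (Fbxo32, Trim63, Fbxo30, Fbxo31 and Mul1, all positive), beside 8.58% of all genes, and the lowest adjusted p was 0.227 (Fbxo31). These comparisons share groups, the LLC and the LLC + rFibcd1 mice among them, so their values are not independent.

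**Figure D2:**
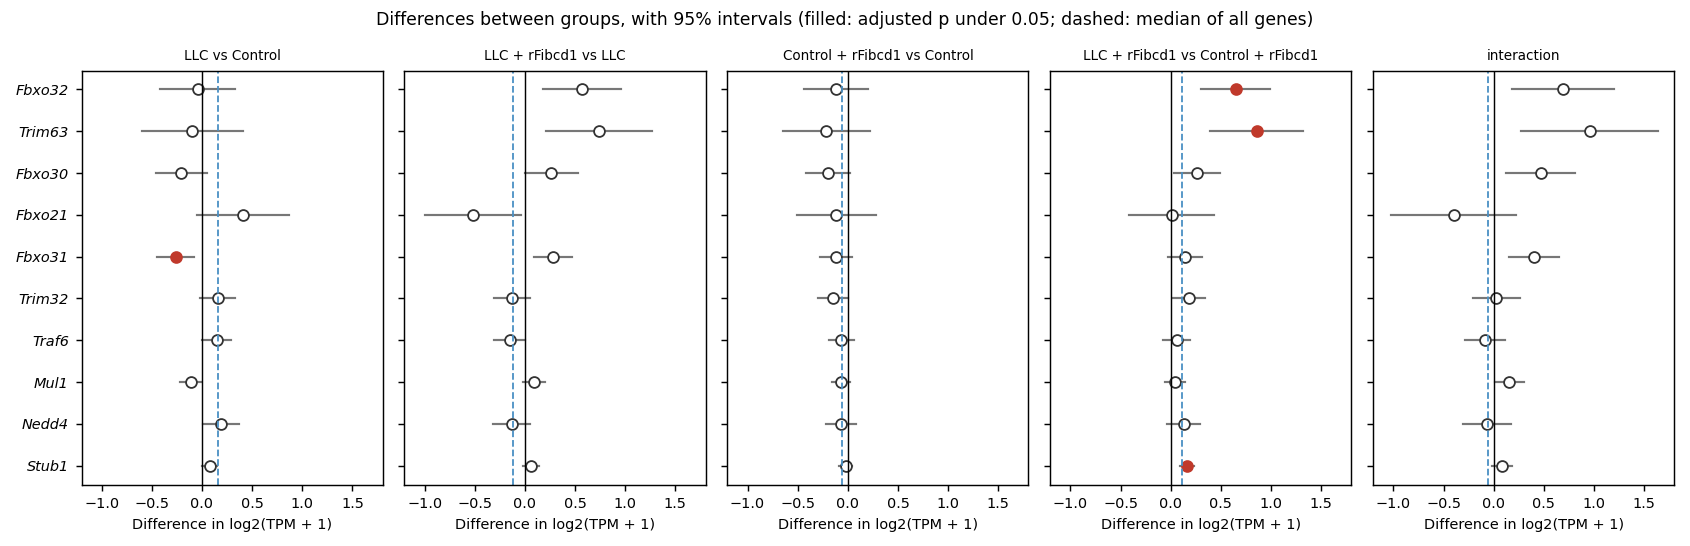
Difference in log2(TPM + 1) of each ligase in 5 comparisons (x axes), with 95% intervals from limma, a dashed line at the median of all genes tested, and filled points where the adjusted p was under 0.05. Filled points are Fbxo31 in LLC against Control mice (-0.26) and Fbxo32 (0.65), Trim63 (0.86) and Stub1 (0.16) in LLC + rFibcd1 against Control + rFibcd1 mice.

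Fbxo32 (GRCm38, chr15:58175879-58214932, minus strand) encodes atrogin-1, the F-box protein that gives an SCF ligase its substrates in muscle, MyoD and the translation factor eIF3f among them. It was at 92.5, 70.5, 73.7, 87.2 and 93.1 TPM in Control mice and at 79.6, 78.7, 91.5, 73.1 and 61.5 TPM in Control + rFibcd1 mice. LLC mice had 73.2, 98.5 and 71.8 TPM. These 3 groups overlapped throughout, and the LLC values lay on both sides of the Control mean. LLC + rFibcd1 mice had 173.5, 96.3, 109.6 and 113.0 TPM, all above every tumor-free mouse and overlapping only with LLC replicate 2. The difference from Control + rFibcd1 mice was 0.65 ± 0.16 (SE) on the log2 scale, with a limma adjusted p of 0.0244. From LLC to LLC + rFibcd1 mice the difference was 0.57 ± 0.18, with a 95% interval of 0.18 to 0.96 and an adjusted p of 0.175. In LLC against Control mice it was -0.044, with an interval of -0.41 to 0.33. The call against Control + rFibcd1 mice was lost without Control + rFibcd1 replicate 4 (adjusted p = 0.0553) or 5 (0.0554). It was also lost under all 3 other scalings (adjusted p = 0.0685 to 0.121, differences 0.53 to 0.58). The replicate block, a fit with the replicate number as a term (0.0748), only the compared groups (0.0882) and Dunn's test (0.177) ended it too. Dunn's test called 0 of the genes tested there, so its result says nothing particular about Fbxo32. In tumor-bearing against tumor-free mice Fbxo32 was called higher (0.34 ± 0.12, adjusted p = 0.0287), but not without LLC + rFibcd1 replicate 1 (0.0790), 3 (0.0528) or 4 (0.0521), under the other scalings (0.119 to 0.239) or under the replicate block (0.0888).

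Trim63 (chr4:134315120-134329629, plus strand) encodes MuRF1, a RING ligase of the sarcomere that attacks myosin heavy chains and other thick filament proteins. Control mice had 101.1, 114.5, 80.2, 81.1 and 118.6 TPM, Control + rFibcd1 mice had 86.9, 70.5, 134.5, 65.1 and 78.3 TPM, and LLC mice had 75.2, 104.5 and 96.7 TPM. LLC + rFibcd1 mice had 192.6, 116.4, 123.6 and 198.0 TPM. Replicates 1 and 4 of that group were the highest of the 17 mice, and Control + rFibcd1 replicate 3 lay above the other two. The difference between LLC + rFibcd1 and Control + rFibcd1 mice was 0.86 ± 0.22 (SE), with an adjusted p of 0.0272 by limma. The groups overlapped through that 1 Control + rFibcd1 mouse. Against LLC mice the difference was 0.74 ± 0.25, with an interval of 0.21 to 1.27 and an adjusted p of 0.182, and the groups did not overlap. In LLC against Control mice it was -0.099, with an interval of -0.60 to 0.40. The call against Control + rFibcd1 mice was lost without Control + rFibcd1 replicate 2 (adjusted p = 0.0663), 4 (0.0676) or 5 (0.0551) or LLC + rFibcd1 replicate 1 (0.0590) or 4 (0.0605). It was also lost under the other scalings (0.0575 to 0.0895, differences 0.74 to 0.79), the replicate block (0.0808), only the compared groups (0.102) and Dunn's test (0.178). Dunn's test called 0 of the genes tested there, so its result says nothing particular about Trim63. The tumor-bearing against tumor-free call (0.43 ± 0.16, adjusted p = 0.0390) was lost, at adjusted p values of 0.0507 to 0.117, without Control replicate 3 or 4, Control + rFibcd1 replicate 2, 4 or 5, or LLC + rFibcd1 replicate 1, 3 or 4. It was also lost with no filter on low values (0.0603), under the other scalings (0.108 to 0.185) and under the replicate block (0.0990).

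Fbxo31 (chr8:121549440-121578806, minus strand) encodes an F-box protein whose known substrates include cyclin D1. It was the ligase called in LLC against Control mice. Control mice had 69.9, 71.3, 74.6, 67.1 and 76.9 TPM, and LLC mice had 64.8, 60.5 and 54.6 TPM, all below the lowest Control mouse. The difference was -0.26 ± 0.086 (SE), with a limma adjusted p of 0.0306, and -0.42 relative to the median gene. LLC + rFibcd1 mice had 83.7, 64.8, 65.7 and 79.0 TPM, just above the LLC range in replicates 2 and 3 and well above it in replicates 1 and 4. The difference from LLC mice was 0.28 ± 0.090, with an adjusted p of 0.175. Control + rFibcd1 mice had 68.4, 70.9, 68.6, 63.7 and 59.5 TPM, which overlapped with every other group. The LLC call was lost without Control replicate 3 (adjusted p = 0.0597) or 5 (0.0662) or LLC replicate 2 (0.0518) or 3 (0.163). It held under all 3 other scalings. It was also lost under the replicate block (0.0782) and by Dunn's test (0.118). In this comparison the block called only 5 genes in all and Dunn's test 0, so these losses say nothing particular about Fbxo31. Gm20388, a gene on the opposite strand whose span covers the 29367 bases of Fbxo31 without sharing exons, was at 18.1 ± 1.51 TPM in Control (SD, n = 5) and 21.6 ± 0.627 TPM in LLC mice (SD, n = 3), the other way from Fbxo31. It was not called (0.25, adjusted p = 0.0999 by limma), and the median gene differed by 0.16.

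Fbxo30 (chr10:11281330-11298052, plus strand) encodes MUSA1, an F-box protein that is held down by BMP signaling through Smad proteins. It was at 7.69, 5.89, 6.84, 8.21 and 7.0 TPM in Control mice and 7.06, 6.64, 6.25, 4.57 and 5.90 TPM in Control + rFibcd1 mice. LLC mice had 5.70, 6.13 and 6.23 TPM and LLC + rFibcd1 mice 8.10, 8.54, 6.59 and 6.63 TPM. All 4 treated tumor-bearing mice thus lay above the 3 mock-treated ones, with a difference of 0.26 ± 0.12 and an adjusted p of 0.221 by limma. The interaction was 0.47, with an interval of 0.12 to 0.81 and an adjusted p of 0.335. In LLC against Control mice Fbxo30 differed by -0.20 with an adjusted p of 0.181. It was called lower there under median-ratio scaling (-0.34, 0.0329) and quantile normalization (-0.51, 0.00729).

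Fbxo21 (chr5:117976730-118010201, plus strand) encodes SMART, an F-box protein needed for full muscle loss after denervation. It had the widest spread in LLC mice, at 17.5, 7.18 and 11.0 TPM, a coefficient of variation of 44.1% against 19.0% in Control mice. Control mice had 10.2, 9.30, 7.40, 8.44 and 6.16 TPM, and Control + rFibcd1 mice had 9.54, 7.99, 5.73, 7.40 and 7.21 TPM. LLC + rFibcd1 mice had 8.05, 8.83, 6.85 and 6.58 TPM, within the Control range. LLC mice differed from Control mice by 0.41 ± 0.21 (adjusted p = 0.140 by limma), with 2 of the 3 above every Control mouse. The difference rested on single mice, at 0.11 (adjusted p = 0.709) without LLC replicate 1 and 0.70 (0.0204) without LLC replicate 2. LLC + rFibcd1 differed from LLC mice by -0.52, with an interval of -0.99 to -0.038 and an adjusted p of 0.209. The adipocyte marker sums of the 3 LLC mice were 8338, 2085 and 4004 TPM, in the same order as their Fbxo21. The 3 tumor-free mice highest in Fbxo21 (Control replicates 1 and 2 and Control + rFibcd1 replicate 1) also had the highest tumor-free adipocyte sums, 3313, 2963 and 4065 TPM. In LLC + rFibcd1 mice the adipocyte sums were 2725, 4349, 2620 and 1225 TPM, also in the same order as their Fbxo21. Between groups, LLC + rFibcd1 replicate 2, above LLC replicate 3 in adipocyte markers, had less Fbxo21 than that mouse. The part of adipocytes in the Fbxo21 values was not tested.

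Trim32 (chr4:65604986-65616238, plus strand) encodes a RING ligase of the thin filament and of desmin, and mutations in it cause a limb-girdle muscular dystrophy. Control mice had 5.64, 6.09, 5.74, 6.08 and 6.2 TPM and LLC mice 7.10, 5.94 and 7.24 TPM, with LLC replicate 2 inside the Control range. Control + rFibcd1 mice had 6.04, 5.52, 5.29, 4.62 and 4.96 TPM, and LLC + rFibcd1 mice had 5.33, 6.65, 6.19 and 6.26 TPM. At an unadjusted p under 0.05, Trim32 was lower in Control + rFibcd1 against Control mice (-0.15 ± 0.070, adjusted p = 0.927 by limma) and higher in LLC + rFibcd1 against Control + rFibcd1 mice. LLC differed from Control mice by 0.15 (adjusted p = 0.138), by 0.23 without LLC replicate 2 (0.0456) and by -0.14 under quantile normalization (0.113). LLC + rFibcd1 differed from Control + rFibcd1 mice by 0.18 (adjusted p = 0.133), and by 0.22 without Control + rFibcd1 replicate 1 (0.0438). The tumor-bearing against tumor-free call (0.16 ± 0.054, adjusted p = 0.0294) was lost without Control + rFibcd1 replicate 3 (0.0516), 4 (0.0584) or 5 (0.0594) or LLC replicate 1 (0.0844) or 3 (0.0918). It was lost under median-ratio scaling (0.381), without mitochondrial genes (0.164) and under the replicate block (0.105), and the difference turned to -0.053 under quantile normalization.

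Traf6 (chr2:101678429-101701669, plus strand) encodes a ligase and adaptor of cytokine and Toll-like receptor signaling, which builds chains that assemble kinase complexes. It was the least abundant of the 10. Control mice had 4.12, 4.47, 4.70, 4.72 and 4.75 TPM and LLC mice 5.32, 4.92 and 5.20 TPM, all higher. The difference was 0.15 ± 0.068 (adjusted p = 0.0971 by limma), the same size as the median gene's. LLC + rFibcd1 mice had 4.32, 4.86, 4.65 and 4.30 TPM, all below the LLC mice, at a difference of -0.15 ± 0.071 (adjusted p = 0.218) beside -0.11 for the median gene. Under quantile normalization both differences turned, to -0.17 and 0.078. Control + rFibcd1 mice had 4.68, 4.67, 3.83, 3.91 and 4.49 TPM, overlapping with Control.

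Mul1 (chr4:138434671-138442265, plus strand) encodes a RING ligase of the mitochondrial outer membrane that targets mitofusin 2. It varied little, at 22.0, 22.7, 23.6, 21.6 and 24.4 TPM in Control mice, 21.8, 21.7 and 19.8 TPM in LLC mice, and 22.4, 21.7, 23.0 and 22.6 TPM in LLC + rFibcd1 mice. Control + rFibcd1 mice had 21.2, 21.4, 23.5, 21.4 and 21.2 TPM. LLC differed from Control mice by -0.11 ± 0.050 (adjusted p = 0.0831 by limma), or -0.27 relative to the median gene. Mul1 was called lower in that comparison under median-ratio scaling (-0.26, 0.0249), without mitochondrially encoded genes (-0.22, 0.0216) and under quantile normalization (-0.31, 0.0122), and likewise between tumor-bearing and tumor-free mice (adjusted p = 0.0221 to 0.0496).

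Nedd4 (chr9:72662346-72749852, plus strand) encodes a HECT ligase that acts on membrane receptors and is known to rise in unloaded and denervated muscle. Control mice had 73.5, 72.5, 67.4, 76.1 and 68.9 TPM, Control + rFibcd1 mice 76.7, 71.9, 60.9, 62.5 and 70.4 TPM, LLC mice 88.6, 74.6 and 82.8 TPM, and LLC + rFibcd1 mice 79.3, 80.3, 73.8 and 65.8 TPM. In LLC mice 2 of 3 lay above every Control mouse, and the difference was 0.19 ± 0.083 (adjusted p = 0.0829 by limma), close to the median gene's 0.16. It was called without LLC replicate 2 (0.26, adjusted p = 0.0421) and with only the compared groups in the fit (0.0485). The tumor-bearing against tumor-free call (0.15 ± 0.056, adjusted p = 0.0419) was lost, at adjusted p values of 0.0543 to 0.123, without any 1 of 9 mice, Control replicates 3 and 5, Control + rFibcd1 replicates 3, 4 and 5, LLC replicates 1 and 3 and LLC + rFibcd1 replicates 1 and 2. It was also lost with no filter on low values (0.0600), under the other scalings (0.312 to 0.727) and under the replicate block (0.0761).

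Stub1 (chr17:25830505-25833404, minus strand) encodes CHIP, a U-box ligase that tags clients of the chaperones Hsc70 and Hsp90. In Control mice its values were the tightest of the 10. Control mice had 76.1, 79.3, 74.8, 73.6 and 75.3 TPM, Control + rFibcd1 mice 73.2, 75.4, 73.6, 75.1 and 75.8 TPM, LLC mice 80.4, 78.9 and 80.7 TPM, and LLC + rFibcd1 mice 81.1, 87.2, 85.7 and 79.9 TPM. All LLC + rFibcd1 mice lay above all tumor-free mice. Stub1 rose in LLC + rFibcd1 against Control + rFibcd1 mice (0.16 ± 0.032, adjusted p = 0.00888 by limma), against Control mice (0.14 ± 0.032, 0.0321), and in all tumor-bearing against all tumor-free mice (0.12 ± 0.024, 0.00229). Relative to the median gene these differences were 0.045, 0.077 and -0.0078. None of the 3 calls held under the other scalings (adjusted p = 0.129 to 0.890), and the third difference turned to -0.0066 under median-ratio scaling. The call against Control mice was also lost without Control replicate 1 (0.0593), 3 (0.0773), 4 (0.0851) or 5 (0.0688) or LLC + rFibcd1 replicate 2 (0.0990) or 3 (0.112), under the replicate block (0.0812), with only the compared groups (0.108) and by Dunn's test (0.348). The call against Control + rFibcd1 mice was lost with only the compared groups (0.0632) and by Dunn's test (0.175). Dunn's test called 0 of the genes tested in these comparisons, so its results say nothing particular about Stub1. In LLC against Control mice Stub1 differed by 0.077 (adjusted p = 0.0927), and by 0.093 without Control replicate 2 (0.0484), but it turned to -0.077 to -0.031 under the 3 other scalings. Jmjd8, whose exons overlap those of Stub1 on the opposite strand, was at 9.95 ± 0.982 TPM in Control (SD, n = 5) and 14.8 ± 1.66 TPM in LLC mice (SD, n = 3), a rise of 0.53 (adjusted p = 0.00942). The labels and the methods name different library kits and the strand setting is not given, so reads of the pair may not have been told apart.

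Fbxo32 and Trim63 varied together across the 17 mice, with a Pearson r of 0.80 of log2(TPM + 1) (permutation p = 0.00013, adjusted p = 0.0029 over the 45 pairs of ligases) and a Spearman coefficient of 0.74 (permutation p = 0.00099, adjusted p = 0.0270). Without the 2 mice farthest from the median of Fbxo32, r was 0.73. It ranged from 0.73 to 0.84 when each mouse was left out in turn. Part of this lay between groups, since r was 0.55 for the deviations of each mouse from its group mean. The permutations moved mice freely across the 4 groups, so the p values of all pairs also take in differences between groups. No p was computed for the deviations. Tests were two-sided. Of the other pairs, 5 passed on Pearson's r, with Fbxo21 and Nedd4 at 0.79, Trim32 and Traf6 at 0.78, Traf6 and Nedd4 at 0.78, Fbxo31 and Mul1 at 0.69, and Trim32 and Nedd4 at 0.68. In the same order, r of the deviations from group means was 0.77, 0.63, 0.63, 0.50 and 0.43. The Spearman coefficient of Trim32 and Nedd4 did not pass (permutation adjusted p = 0.144). Neither Fbxo32 nor Trim63 passed with a ligase outside their pair. Under median-ratio scaling 3 pairs passed.

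**Figure D3:**
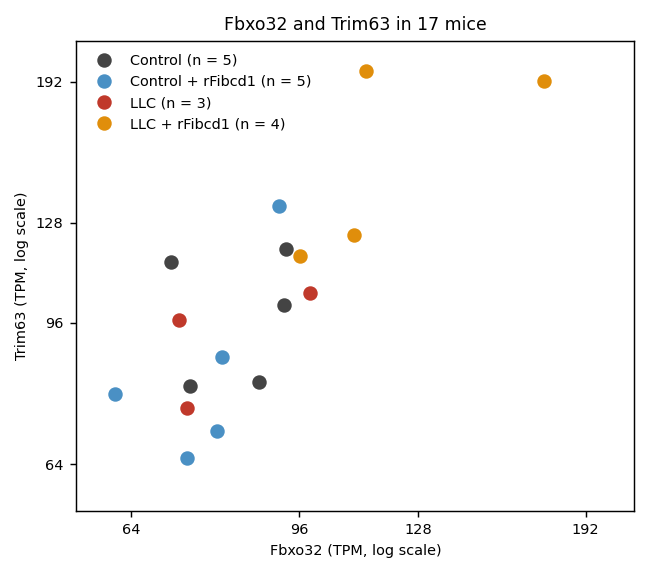
Fbxo32 (x axis) against Trim63 (y axis) in TPM on log scales, with 1 point per mouse, colored by group. The 4 LLC + rFibcd1 mice lie to the upper right, at 96.3 to 173.5 TPM of Fbxo32 and 116.4 to 198.0 TPM of Trim63, and Pearson's r over the 17 mice is 0.80.

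The genes whose pattern over the 17 mice was most like each of the pair were listed among 8302 genes averaging at least 5 TPM, as a description with no test. For Fbxo32 they were Pla2g12a (r = 0.90), Psmc3 (0.87), Klhl38 (0.87), Fxr2 (0.86) and Art5 (0.86). Psmc3 encodes an ATPase subunit of the proteasome and Klhl38 an adaptor of cullin-3 ligases. Klhl38 was at 35.1 ± 5.59 (SD) TPM in the 5 Control mice, 32.5 ± 6.60 in the 3 LLC mice and 43.6 ± 10.5 in the 4 LLC + rFibcd1 mice. For Trim63 they were Slc6a8 (0.93), Flcn (0.92), Sar1a (0.90), Optn (0.88) and Rnf10 (0.87). Slc6a8, the creatine transporter, was at 75.7 ± 7.74, 73.2 ± 8.57 and 97.0 ± 9.79 TPM in the same groups. Flcn, folliculin, a regulator of mTORC1 and of the TFEB family, was at 34.7 ± 6.01, 33.3 ± 0.90 and 41.5 ± 4.58 TPM. Trim63 ranked 25 among the genes most like Fbxo32, and Fbxo32 ranked 33 for Trim63.

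Of 28 other ligases known in muscle, 3 rose and 1 fell in LLC against Control mice, beside 35.8% of all genes. Syvn1, a ligase of the endoplasmic reticulum that clears misfolded proteins, rose by 0.72 (11.1 to 19.0 TPM), Nedd4l by 0.24 and Smurf1 by 0.15, and Trim55 (MuRF2), a close relative of Trim63, fell by 0.29 (44.8 to 36.5 TPM). The median of the list was -0.065 against 0.16 for all genes. The balance turned with scaling, to 1 higher and 7 lower under median-ratio scaling and without mitochondrially encoded genes, and 1 and 10 under quantile normalization. Nedd4l and Smurf1 lost their calls under all 3. Between LLC + rFibcd1 and LLC mice 1 of the 28 was called, beside 0.113% of all genes. It was Asb2, a cullin-based ligase subunit that restrains muscle mass. LLC + rFibcd1 mice had 208.7, 193.6, 193.4 and 201.6 TPM of Asb2, and LLC mice had 103.1, 127.8 and 103.2 TPM. No mouse of the other 3 groups reached the 4 LLC + rFibcd1 mice, since Control mice had 120.0 to 161.3 and Control + rFibcd1 mice 98.3 to 163.7 TPM. The difference from LLC mice was 0.84 ± 0.14 (limma adjusted p = 0.0383). It was lost, at adjusted p values of 0.0566 to 0.240, without Control replicate 1, Control + rFibcd1 replicate 2 or 5, LLC replicate 1 or 3, or LLC + rFibcd1 replicate 1, 2 or 4. It was also lost under median-ratio scaling (0.0501), quantile normalization (0.0592) and a pseudocount of 0.1 TPM (0.0547). The replicate block (0.126), only the compared groups (0.0979) and Dunn's test (0.550) each called 0 of all genes tested there. Their results therefore say nothing particular about Asb2. Against Control + rFibcd1 mice Asb2 rose by 0.74 ± 0.13 (0.00397), which held in all 17 fits that leave out 1 mouse and under all 3 other scalings. Smurf1 (0.27) and Siah1a (0.30) also rose there, for 3 of 28 in all, beside 8.06% of all genes, of which Asb2 alone was called under the other scalings.

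The core of the SCF ligase, which carries the F-box members, and the neddylation enzymes that activate it held 7 measured genes. Nedd8, the modifier that activates cullins, rose by 0.11 in LLC against Control and by 0.19 in LLC + rFibcd1 against Control + rFibcd1 mice, and Skp1a, the adaptor that binds F-box proteins, rose by 0.12 in the latter comparison. No other gene of this list was called in these comparisons, beside 35.8% and 8.06% of all genes, and none between LLC + rFibcd1 and LLC mice, beside 0.113%. All of these calls of Nedd8 and Skp1a were lost under the 3 other scalings, and Nedd8 in LLC against Control mice turned to -0.041 and -0.043 under median-ratio scaling and quantile normalization.

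Of 26 genes for ubiquitin and its activating and conjugating enzymes, 5 rose and 3 fell in LLC against Control mice, beside 35.8% of all genes. Rps27a, which encodes ubiquitin fused to a ribosomal protein, rose by 0.44, Ube2d2a by 0.28 and Ube2h by 0.23, and Ube2d1 fell by 0.25, with 4 further calls. Here too the balance turned, to 1 higher and 7 lower under median-ratio scaling, 3 and 7 without mitochondrially encoded genes and 2 and 10 under quantile normalization. With rFibcd1 in both groups, tumor-bearing against tumor-free, 5 rose and 1 fell, beside 8.06% of all genes. Ube2h rose by 0.43 and Ube2o by 0.25, and Ube2g1 fell by 0.35, with 3 further calls. No gene of this list was called between LLC + rFibcd1 and LLC mice, beside 0.113% of all genes.

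Of 31 constitutive subunits of the proteasome, the machine that degrades ubiquitin-tagged proteins, 13 rose and none fell in LLC against Control mice, beside 35.8% of all genes called, with the largest rises in Psmd4 (0.20), Psmd8 (0.19), Psmb1 (0.19) and Psma7 (0.19), and a list median of 0.077 against 0.16 for all genes. Against Control + rFibcd1 mice 16 rose in LLC + rFibcd1 mice, beside 8.06% of all genes called, led by Psmb1 (0.30), Psmd4 (0.22), Psmd3 (0.20) and Psmb4 (0.19), with a median of 0.13 against 0.11. None was called between LLC + rFibcd1 and LLC mice, beside 0.113% of all genes. These calls depended on scaling. Under median-ratio scaling and quantile normalization 0 subunits rose and 2 fell in LLC against Control mice, and 0 rose or fell in the other comparison. Without mitochondrially encoded genes the subunits named for LLC against Control mice lost their calls. In the other comparison Psmb1 kept its call under that scaling, whereas Psmd4, Psmd3 and Psmb4 lost theirs.

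Of 28 genes of FoxO and glucocorticoid programs, 1 rose and 2 fell in LLC against Control mice, beside 35.8% of all genes. Ctsl, a lysosomal protease, rose by 0.24, whereas Gadd45a, a stress gene, fell by 0.34 and Foxo4 by 0.19. In LLC + rFibcd1 against Control + rFibcd1 mice 4 rose and 1 fell, beside 8.06% of all genes. Cdkn1a, the cell cycle inhibitor p21, was at 47.5, 42.7, 30.7 and 43.1 TPM in LLC + rFibcd1 and 26.2, 9.39, 34.7, 8.98 and 13.1 TPM in Control + rFibcd1 mice, a rise of 1.29 ± 0.32 (limma adjusted p = 0.0233) with overlap through 1 mouse. That call was lost without Control + rFibcd1 replicate 2 (0.0583), 4 (0.0561) or 5 (0.0512) or LLC + rFibcd1 replicate 2 (0.0664). Quantile normalization, the replicate block and only the compared groups ended it too, as did Dunn's test, which called 0 genes there. Bnip3, a mitophagy receptor, rose by 0.35 and Ctsl by 0.33, and Pik3r1, a regulatory subunit of PI3 kinase, fell by 0.53, with 1 further call. None was called between LLC + rFibcd1 and LLC mice, beside 0.113% of all genes. Foxo1 differed there by -0.19 (adjusted p = 0.573 by limma) and Foxo3 by -0.12 (0.490).

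Of 18 measured genes of BMP, activin and Smad signaling, 3 rose and 1 fell in LLC against Control mice, beside 35.8% of all genes. They were Id2 (0.82), Fst (0.49), Smad2 (0.26) and Mstn (-0.61). Under median-ratio scaling 1 rose and 3 fell, and under quantile normalization 0 rose and 6 fell. Mstn encodes myostatin, a muscle-made inhibitor of muscle growth. It was at 15.1, 12.1 and 14.2 TPM in LLC and 8.30, 6.15, 8.26 and 13.6 TPM in LLC + rFibcd1 mice, below all 10 tumor-free mice, which had 18.1 to 37.3 TPM. The LLC against Control call of Mstn (adjusted p = 0.0456) held in 6 of the 17 fits that left out 1 mouse. Against Control + rFibcd1 mice Mstn fell by 1.58 on the log2 scale in LLC + rFibcd1 mice (limma adjusted p = 0.00110), and Fst, follistatin, which binds myostatin, rose by 0.44.

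Among 32 partners and substrates of the ligases, 1 rose and 5 fell in LLC against Control mice, beside 35.8% of all genes. Eif3f, a substrate of atrogin-1, rose by 0.26, and Myod1 fell by 0.39, Mylpf by 0.35 and Tnni2 by 0.29, with 2 further calls. Under the other scalings none rose and 9 or 10 fell. Between LLC + rFibcd1 and Control + rFibcd1 mice 4 rose and 3 fell, beside 8.06% of all genes, with falls in Mybpc2 (0.71), Mylpf (0.44) and Myl1 (0.43), thick filament genes whose proteins MuRF1 targets, and a rise of Eif3f (0.32). The fast light chain gene Mylpf was at 5026 ± 249.6 (SD) TPM in the 5 Control mice, 3940 ± 264 in the 3 LLC mice and 3878 ± 352 in the 4 LLC + rFibcd1 mice.

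All 24 list genes named here for LLC against Control mice lost their call without LLC replicate 3, and no gene of the 7 lists was then called. Of the 23 chosen by the same rule for LLC + rFibcd1 against Control + rFibcd1 mice, 16 held in every fit that left out 1 mouse. The 8 that also held under all 3 other scalings were Asb2, Ube2h, Ube2g1, Pik3r1, Mstn, Mybpc2, Mylpf and Myl1. The 7 that did not hold in every such fit were Siah1a (held in 4 of 17), Skp1a (10), Ube2o (12), Cdkn1a (13), Bnip3 (13), Ctsl (16) and Fst (16). Leaving out Control + rFibcd1 replicate 4 ended 5 of them, and leaving out replicate 5 of that group ended the same 5.

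**Figure D4:**
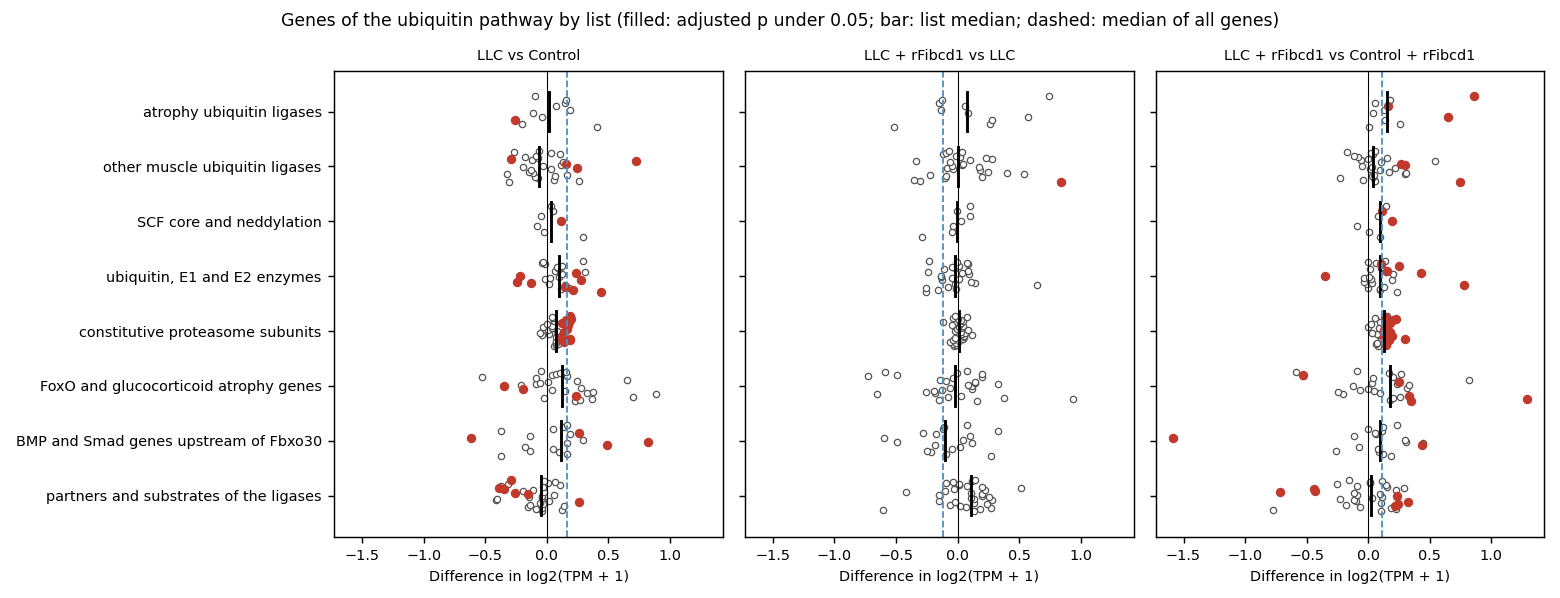
Difference in log2(TPM + 1) (x axis) of single genes in the 10 ligases and 7 lists of the ubiquitin pathway, in 3 comparisons, with filled points where the adjusted p was under 0.05, a bar at the list median and a dashed line at the median of all genes. Of 31 proteasome subunits 13 are filled in LLC against Control and 16 in LLC + rFibcd1 against Control + rFibcd1 mice, and 1 list gene, Asb2, is filled in LLC + rFibcd1 against LLC mice.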

How the data were processed

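Polyadenylated RNA from the diaphragm of 17 mice was sequenced. According to the methods, the authors trimmed and quality-filtered paired reads, aligned them to mouse genome build GRCm38 (mm10 in the submitters' processing notes) in CLC Genomics Workbench and deposited 1 table of TPM, mitochondrially encoded genes included. The annotation release and the strand setting are not given in the sources used here. The labels name a stranded library kit and the methods a different kit and sequencer, so whether strand was kept is unknown, and 0 columns lacked a sample. Groups came from the sample titles. Values were transformed to log2(TPM + 1) after a filter of at least 1 TPM in at least 3 mice, and the 4 groups were fitted together with limma 3.58.1 (R 4.3.3) with an expression trend, two-sided, with Benjamini-Hochberg adjustment over all 13305 genes. limma took the place of the authors' rank test with Dunn comparisons, which was kept as an alternative. The fit was tested on simulated data. Correlations used 100000 permutations (SciPy 1.17.1). The ligases and gene lists were chosen with earlier results of these data known. All ligases were described, and of each list at most 4 called genes per comparison, those with the largest differences, of which 1 is not reported here. Gene models and depths came from GENCODE vM21, and promoters from RefSeq. Alternatives changed the pseudocount (0.1 TPM), the filter (none, or 5 TPM), the scaling (median-ratio, rescaling without mitochondrially encoded genes, quantile normalization), the fit (replicate block, only the compared groups, Dunn's test) or left out each mouse.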

Additional observations from a re-analysis of the deposited data

Results flagged for a closer look

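Of 30 sets of ligase values in groups of 4 or 5 mice, 1 held a mouse that stood apart from the rest of its group. Mul1 in Control + rFibcd1 replicate 3 was at 23.5 TPM, and the other 4 mice of the group were at 21.2 to 21.4 TPM. The gap was 0.918 of the group's range, above the critical value of 0.71. Chance marks about 1 in 20 such sets, so this is no more than chance would give. The LLC group, of 3 mice, was too small for this test.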

How the results depend on the processing

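Over 70 ligase results, 1612 of 1773 values under the alternatives kept direction and side of the threshold, 86 lost a call, 14 gained one and 61 changed sign, of which only those of Stub1 and Trim32 in tumor-bearing against tumor-free mice belonged to called results. No ligase was called under any alternative in LLC + rFibcd1 against LLC mice, in Control + rFibcd1 against Control mice or for the interaction. In LLC against Control mice, 1 called ligase became 3 under median-ratio scaling and under quantile normalization, 2 without mitochondrially encoded genes and with only the compared groups, 0 with the replicate block and by Dunn's test, and 0 to 3 when 1 mouse was left out. In LLC + rFibcd1 against Control + rFibcd1 mice, 3 became 0 under the 3 scalings, with only the compared groups and by Dunn's test, 1 with the replicate block, and 1 to 4 without 1 mouse. In LLC + rFibcd1 against Control mice, 1 became 0 under the same scalings, the replicate block, the compared groups alone and Dunn's test, and 0 to 1 without 1 mouse. In tumor-bearing against tumor-free mice, 5 became 3 with no filter, 1 with the replicate block (Stub1) and 2 to 5 without 1 mouse. Under each of the 3 scalings all 5 were lost and 1 other, Mul1, was called lower. The 6 correlated pairs became 3 under median-ratio scaling and 4 to 7 without 1 mouse.

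Median-ratio scaling turned Stub1 (-0.077) in LLC against Control, Nedd4 (0.00015) and Stub1 (0.046) in Control + rFibcd1 against Control, Fbxo21 (-0.098), Traf6 (-0.039) and Mul1 (-0.073) in LLC + rFibcd1 against Control + rFibcd1, Fbxo31 (-0.032) and Trim32 (-0.016) in LLC + rFibcd1 against Control, and Fbxo30 (-0.065), Traf6 (-0.015) and Stub1 (-0.0066) in tumor-bearing against tumor-free. Rescaling without mitochondrially encoded genes turned Stub1 (-0.031) in LLC against Control, Fbxo21 (-0.056) and Mul1 (-0.025) in LLC + rFibcd1 against Control + rFibcd1, Fbxo31 (-0.032) and Trim32 (-0.017) in LLC + rFibcd1 against Control, and Fbxo30 (-0.028) in tumor-bearing against tumor-free. Quantile normalization turned Trim32 (-0.14), Traf6 (-0.17) and Stub1 (-0.042) in LLC against Control, Trim32 (0.088) and Traf6 (0.078) in LLC + rFibcd1 against LLC, Traf6 (0.0065) and Stub1 (0.0092) in Control + rFibcd1 against Control, Fbxo21 (-0.14), Traf6 (-0.097) and Mul1 (-0.065) in LLC + rFibcd1 against Control + rFibcd1, Fbxo30 (-0.019), Fbxo31 (-0.061), Trim32 (-0.052) and Nedd4 (-0.011) in LLC + rFibcd1 against Control, Fbxo30 (-0.17), Fbxo21 (-0.021), Trim32 (-0.053) and Traf6 (-0.13) in tumor-bearing against tumor-free, and Traf6 (0.072) in the interaction. The replicate block turned Fbxo21 (-0.043) in LLC + rFibcd1 against Control + rFibcd1, and Traf6 (0.0071) in LLC + rFibcd1 against Control. Leaving out 1 mouse moved across 0 Fbxo32 (-0.19 to 0.036) and Trim63 (-0.20 to 0.039) in LLC against Control, Fbxo21 (-0.076 to 0.086) in LLC + rFibcd1 against Control + rFibcd1, Fbxo30 (-0.0015 to 0.11), Fbxo31 (-0.047 to 0.074), Traf6 (-0.034 to 0.014) and Trim32 (-0.0078 to 0.084) in LLC + rFibcd1 against Control, Fbxo30 (-0.0019 to 0.083) and Fbxo31 (-0.095 to 0.0065) in tumor-bearing against tumor-free, and Trim32 (-0.055 to 0.078) in the interaction.

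Among list genes, quantile normalization reversed Nedd4l (-0.080), Smurf1 (-0.11), Nedd8 (-0.043) and Smad2 (-0.021) in LLC against Control mice, and Ube2m (-0.020) and Skp1a (-0.0035) in tumor-bearing mice. Median-ratio scaling reversed Nedd8 (-0.041) in LLC against Control, Skp1a (-0.0043) in LLC + rFibcd1 against Control + rFibcd1, and Ube2m (-0.030) and Skp1a (-0.047) in tumor-bearing mice. Without mitochondrially encoded genes Skp1a turned to -0.0021 there. Scalings set the share of higher calls in LLC against Control mice, 83.2% as deposited, 57.4% with median-ratio scaling, 64.2% without mitochondrially encoded genes and 32.2% with quantile normalization. The list alternatives were added after the data were seen.

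Replicate numbers showed no sign of pairing the mice. Deviations from group means had a mean correlation of -0.047 in same-number pairs, beside 0.013 in other pairs between groups. Of 22 same-number pairs 4 were over 0.1 (range -0.46 to 0.49). With the replicate block, 5 genes in all were called in LLC against Control mice instead of 4759. Dunn's test called 0 of the genes tested in each of the 5 comparisons it was run for, so its counts of 0 ligases carry no information about them. Genes called in LLC + rFibcd1 against Control + rFibcd1 mice went from 1072 to 467 to 581 under the 3 scalings, 492 with the replicate block, 304 with the compared groups alone and 0 by Dunn's test. LLC + rFibcd1 against LLC mice went from 15 to 48 with no filter, 2 with the smaller pseudocount and 0 with the replicate block. With groups of 3 to 5 mice, differences that are small beside the intervals given may have been missed. Dunn's test and a fit of the compared groups alone were not run for the interaction or for tumor-bearing against tumor-free mice, which use all 4 groups. A filter of 5 TPM leaves no value for Traf6.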
